A study of Mus musculus with 29 samples.

Results

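The forkhead family was taken as every row of the count tables whose symbol is Fox followed by a subfamily letter from a to s, a number and at most 1 further letter. This gave 44 genes of the 23337 in the tables. Forkhead factors share a winged-helix DNA-binding domain, in which the third helix reads the DNA. In the trunk, Foxc1 and Foxc2 are known for their joint need in the forming somites, Foxf1 and Foxf2 for the mesenchyme around the gut and as targets of Hedgehog signals, Foxa2 for notochord, floor plate and endoderm, and Foxd3 for the neural crest. Others work in most cells: FoxO factors are held out of the nucleus by insulin and Akt signalling, and Foxm1 drives genes of the late cell cycle.

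RNA was sequenced from 29 libraries in 8 groups, from Dll1-YFP mouse embryos of strain C57BL/6 at E9.0. In these embryos YFP marks the descendants of cells that expressed Dll1, a Notch ligand of the presomitic mesoderm, so the mark also reaches other derivatives of such cells. SOMA (n = 3) holds YFP+ cells of the unsegmented presomitic mesoderm and the newest somite, SOMB (n = 4) those of somites 2 to 5, SOMC (n = 4) those of somites 6 to 9, and SOMD (n = 4) those from somite 10 on; a higher number means an older somite. The CTRL and DIR libraries (4 of each) hold Dll1-lineage cells after culture of explants without (CTRL) or with (DIR) LDN and SAG, molecules that block BMP receptors and switch on Smoothened of the Hedgehog pathway. WT and MUT (n = 3 each) are trunk tissue whose RNA was taken without sorting; the labels name no mutated gene. SOMA has replicates 1, 3 and 4. The labels do not say whether replicates are separate embryos, so p-values measure the spread between libraries, which may be technical.

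Gene counts per library ran from 11541131 to 44363411. Levels are given as CPM, counts scaled to a common library size, each a mean with the SD of its libraries; a difference is a log2 fold change with its SE from edgeR's quasi-likelihood test, with p-values corrected by the Benjamini-Hochberg method across every gene tested; a gene is called past 0.05. SOMC1 and SOMC4 were nearly alike, as were SOMD1 and SOMD4 (chi-square per degree of freedom 1.95 and 1.91, against at least 9.24 in every other pair of SOM libraries). Both values are above sampling noise, so the libraries were kept apart. Results that change when each pair is summed are said to do so. The labels do not say whether each pair repeats a single sample. If it does, the main fits count that sample again, and p-values in the SOM groups may be too small. CTRL1, DIR1 and DIR2 stood apart from the other cultured libraries, with 22.3 to 25.4% of alignments not unique (the multi-place share) against 15.9 to 19.5%. As bulk samples, these libraries do not tell fewer cells of a type from less RNA per cell. Sorted cells of SOMA to SOMD had 6 of 6 paraxial mesoderm markers, at a summed 361.5 to 708.3 CPM. The neural crest factor Sox10, at 0.14 to 2.14 CPM in the means of the sorted groups, and the endoderm adhesion gene Epcam, at 1.79 to 3.99, were higher in trunk tissue, where Sox10 had 12.3 (MUT) and 12.2 (WT) and Epcam 37.6 and 33.4.

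Of the 44 genes, 24 reached a mean of 5 CPM in at least 1 group, 5 lay between 1 and 5 CPM at their highest group, and 15 stayed below 1 CPM in every group. Those in between are Foxa3 of endoderm, Foxj1 of motile cilia, Foxh1, Foxl2 and Foxq1. The last set holds Foxn1 of the thymus, Foxe3 of the lens and Foxp3 of regulatory T cells, and also Foxe1, which is treated below because it was called. Summed over the family and per kilobase of exon, the mean level ran from 223.5 ± 27.8 CPM per kb in DIR to 269.7 ± 16.4 in SOMA. Which member led differed. Per kilobase of exon Foxc2 had the highest level in SOMA (48.8 CPM per kb), Foxp4 in SOMB, SOMC and SOMD (35.8, 42.8 and 44.5), Foxo4 in CTRL (36.7) and Foxc2 in DIR (34.7), MUT (43.3) and WT (41.0). With the length of the longest transcript in place of all exons, Foxp4 led in MUT and WT (50.2 and 44.4) and the other leaders held.

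**Figure D1:**
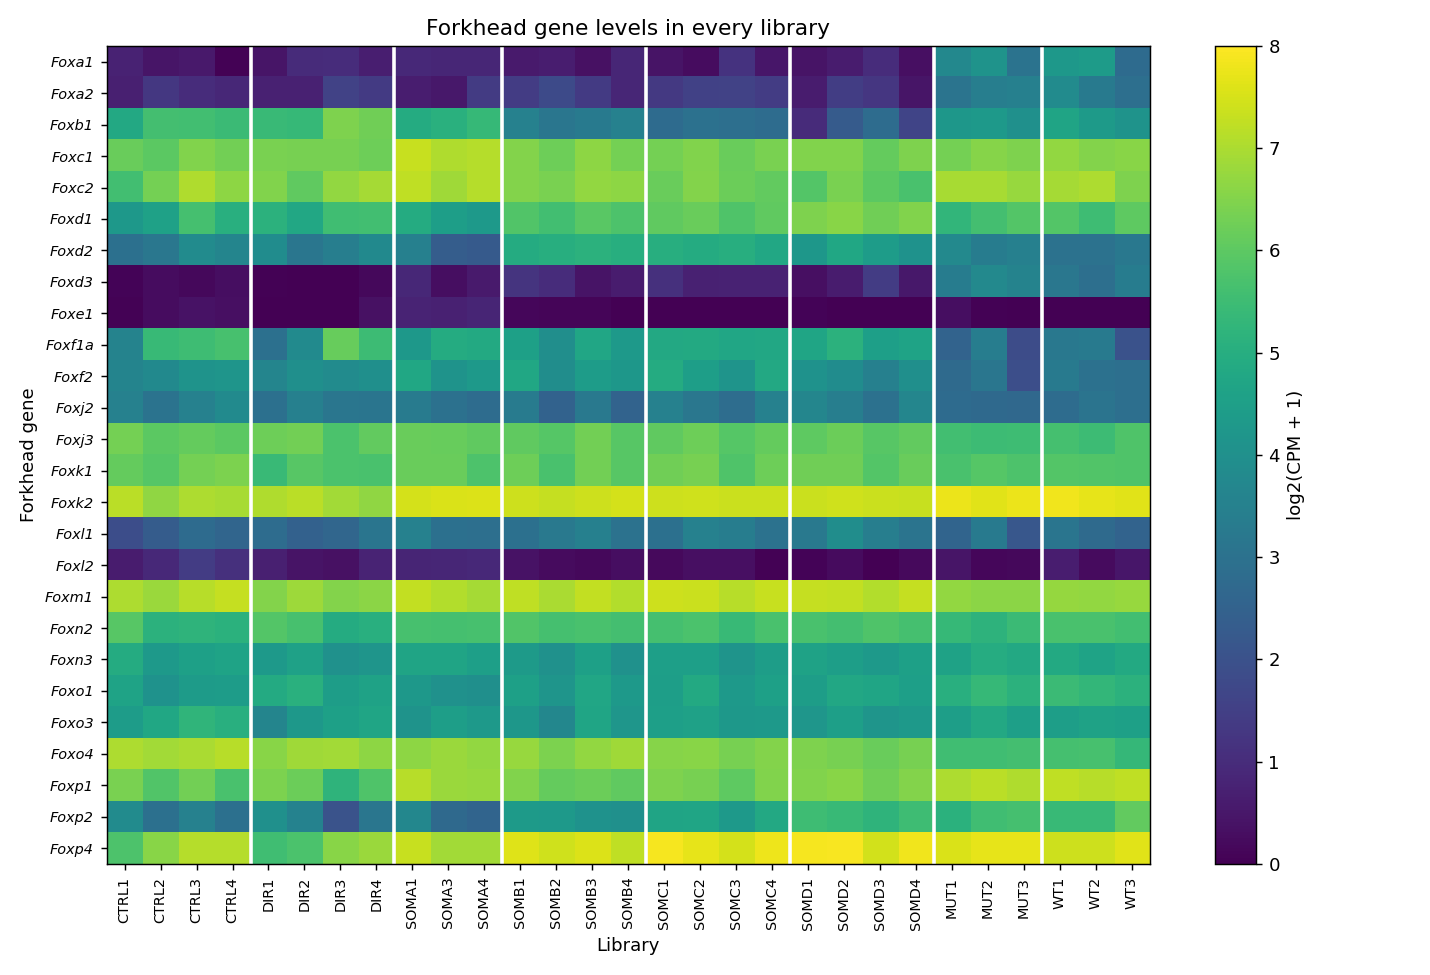
Levels of the 26 forkhead genes described (rows) in each of the 29 libraries (columns, white lines between groups), as log2(CPM + 1) on the colour scale. Foxa1, Foxa2 and Foxd3 are bright in the 6 trunk libraries, Foxd2 and Foxp2 are darkest in SOMA among the SOM groups, and Foxb1 darkens from SOMA to SOMD.

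The members differ in how alike they are. Below is the coding stretch of 60 bases around the third helix, read from GENCODE M21 transcripts (GRCm38) of 5 members whose levels changed along the trunk; capitals mark bases that differ from Foxc1. It is shown because reads from stretches that are identical between paralogs would not align at a single place.
Foxc1: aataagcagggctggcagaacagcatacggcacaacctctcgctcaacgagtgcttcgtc
Foxb1: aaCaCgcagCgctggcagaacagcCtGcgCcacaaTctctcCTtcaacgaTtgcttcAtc
Foxd1: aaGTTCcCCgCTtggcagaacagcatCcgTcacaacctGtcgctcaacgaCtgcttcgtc
Foxd2: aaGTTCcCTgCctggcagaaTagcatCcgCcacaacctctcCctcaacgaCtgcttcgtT
Foxp4: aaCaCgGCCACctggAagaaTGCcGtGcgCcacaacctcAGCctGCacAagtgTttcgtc
Foxb1 differs from Foxc1 at 11 of the 60 bases, Foxd1 at 12, Foxd2 at 13 and Foxp4 at 21. The closest pairs in this stretch are not those shown: Foxf1a and Foxf2 differ at 1 base, and Foxd1 and Foxd3 at 2. Across the longest transcripts of the 26 genes described, 4 of 325 pairs shared an identical run of at least 40 bases and 1 pair a run of at least 50; no pair shared 75. A read wholly inside such a run matches both genes of its pair.

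The family is spread over 16 chromosomes with 3 small clusters in GENCODE M21. On chromosome 13, Foxq1, Foxf2 and Foxc1 (chr13:31806633-31812476) follow each other with gaps of 64.8 and 175.2 kb. On chromosome 8, Foxf1, which the tables call Foxf1a, lies 28.0 kb from Foxc2 (chr8:121116171-121118895), and Foxc2 lies 9.0 kb from Foxl1. On chromosome 4, Foxd2 (chr4:114906282-114908873) lies 16.3 kb from Foxe3. In exons, 13 members overlap another annotated gene, most of all Foxq1 (66.1% of its exon bases) and Foxp3 (45.5%), and Foxb1 overlaps an opposite-strand gene over 14.0%. The kit keeps no strand, so reads there cannot be assigned to either gene.

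The sorted levels ask how the family differs between unsegmented mesoderm and progressively older somites. Between SOMA and SOMB, Foxd1, Foxd2 and Foxp2 rose, and Foxb1, Foxc1, Foxc2, Foxp1, Foxe1 and Foxl2 fell. These are 3 higher and 6 lower members of 30 tested, or 30%, where 8.67% of all 13790 genes tested were called (4.13% higher and 4.55% lower). No call was made between SOMB and SOMC: 0 of 30 by edgeR and 0 by DESeq2, where 0.827% (edgeR) and 2.07% (DESeq2) of all genes were called. By edgeR 5 members had an unadjusted p under 0.05, a threshold at which the share of all genes was not counted. Between SOMC and SOMD Foxp2 alone was called (1 of 30, where 2.34% of all genes were called and 1.26% were higher). From end to end, SOMD against SOMA, 5 members rose and 7 fell of 30 tested (40%, where 19.8% of all genes were called, 10.8% higher and 8.92% lower). The test of any difference over the 4 groups called 11 of 30 members and 19.8% of all genes. The comparisons share libraries, SOMA serving in those of SOMB and of SOMD, so their calls are not independent. The median log2 fold change of the tested members was −0.07 in SOMB against SOMA and 0.04 in SOMD against SOMA, beside 0.01 and 0.00 for all genes.

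**Figure D2:**
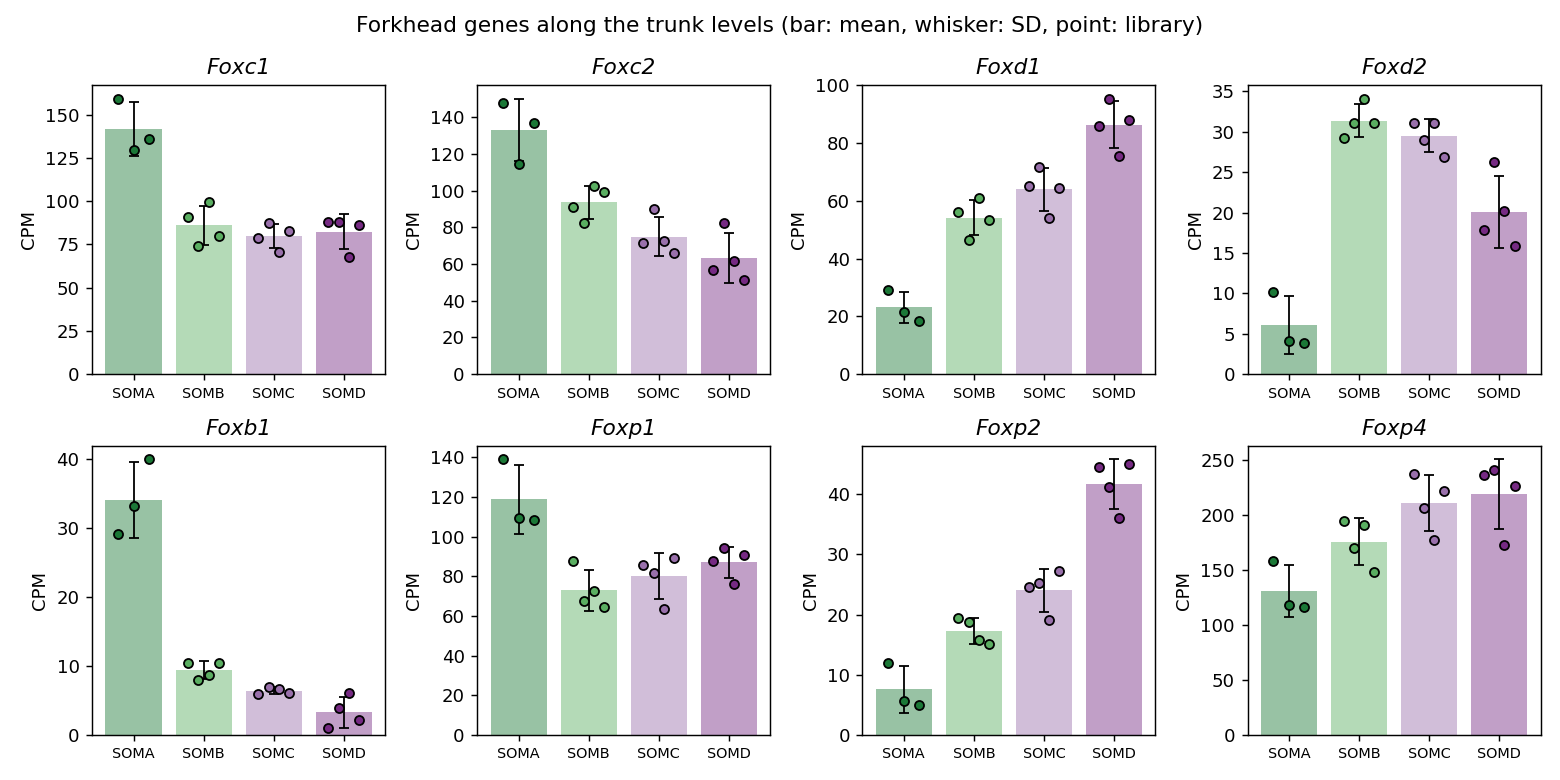
CPM of 8 forkhead genes in the 3 SOMA libraries and the 4 libraries each of SOMB, SOMC and SOMD, with bars for means, whiskers for SD and points for libraries. Foxc1, Foxc2, Foxb1 and Foxp1 are highest in SOMA, Foxd1, Foxp2 and Foxp4 have their highest means in SOMD, and Foxd2 has its highest mean, 31.4, in SOMB.

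Foxc1 and Foxc2, the paired regulators of somite formation, were highest in the youngest tissue. Foxc1 had 159.4, 129.9 and 136.3 CPM in the SOMA libraries and 91.04, 74.2, 99.7 and 79.8 in SOMB. Every SOMA library was above every SOMB library, and Foxc1 fell by 0.73 ± 0.12 on the log2 scale (edgeR adjusted p = 8.52e-04). It had 80.03 ± 7.08 CPM in SOMC and 82.4 ± 9.95 in SOMD, and neither later step was called.

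Foxc2 went on falling past the first somites in its means. Its SOMA libraries had 147.97, 114.7 and 136.7 CPM, those of SOMB 90.8, 82.4, 102.5 and 98.96, and those of SOMD 56.9, 82.4, 61.9 and 51.1. SOMA lay above both other groups without overlap, whereas SOMB and SOMD met, SOMD2 being as high as SOMB2. The drop to SOMB was 0.52 ± 0.15 (edgeR adjusted p = 0.0364) and was no longer called without SOMA1 (0.144), SOMA4 (0.116), SOMB1 (0.078), SOMB2 (0.101) or SOMB4 (0.0587), or with all 29 libraries in 1 fit (0.298). Over the whole series it fell by 1.07 ± 0.15 (edgeR adjusted p = 6.90e-05), beside 0.77 ± 0.12 for Foxc1 (2.13e-04); whether the 2 drops differ was not tested. The ratio of Foxc1 to Foxc2 counts was 1.07 ± 0.07 in SOMA, 0.92 ± 0.09 in SOMB, 1.08 ± 0.13 in SOMC and 1.35 ± 0.32 in SOMD.

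Factors known to act beside Foxc1 and Foxc2 in the presomitic mesoderm and somites form a list chosen with earlier results of these data known. It holds known markers of both tissues, so calls between them were likely from the choice alone. Of 18 tested, 5 were higher and 7 lower in SOMB than in SOMA, where 8.67% of all genes were called. In SOMD against SOMA, 5 were higher and 11 lower, where 19.8% of all genes were called. The lower ones in SOMB include Dll1 (−3.42 ± 0.20), Msgn1 (−6.22 ± 0.45), a factor of presomitic mesoderm, and Mesp2 (−5.14 ± 0.40), which sets somite boundaries; the higher ones include Pax1 (+4.51 ± 0.52) of the sclerotome and Meox2 (+1.75 ± 0.20). The median of the list was −0.45 in SOMB against SOMA and −1.17 in SOMD against SOMA.

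Foxf1a and Foxf2, which mark Hedgehog-responsive mesenchyme, and Foxl1, a factor of gut mesenchyme, were not called at any step. Foxf1a had a mean of 20.5 to 26.9 CPM across the 4 groups, single libraries having 14.5 to 34.1. Foxl1 had 6.51 to 14.1 CPM in the single libraries. For Foxf2, SOMC libraries had 29.4, 21.5, 16.7 and 27.7 CPM and SOMD libraries 15.9, 13.8, 10.1 and 14.8. Every SOMC library lay above every SOMD library, yet the difference (−0.78 ± 0.22) did not pass (edgeR adjusted p = 0.0823). It passed with the replicate number as a block (0.0165), with DESeq2 (0.0154), without SOMC3 (0.0433) and with the no-feature share (reads outside genes) as a covariate (8.11e-04). Of all genes, the block called 2.77%, DESeq2 3.6% and this covariate 3.89%. Lateral plate and heart markers summed to 117.0 to 167.2 CPM in SOMA and 102.2 to 192.1 in SOMB, where Nkx2-5 was at 0. They had 172.3 to 278.9 CPM in SOMC and 122.6 to 175.9 in SOMD. Of 7 tested in SOMD against SOMC, 2 were called higher and 1 lower. Their part in the levels of Foxf1a, Foxf2 and Foxl1 was not tested. Of 9 tested Hedgehog pathway genes, Gli2 (+0.57 ± 0.15) and Hhip, a membrane protein that binds Hedgehog ligands (+1.78 ± 0.19), rose from SOMA to SOMB and none fell; the same 2 were higher in SOMD than in SOMA.

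Both expressed Foxd genes rose at the first step and then parted. Foxd1, a factor of the stroma of the kidney, had 29.1, 21.6 and 18.5 CPM in SOMA, 55.9, 46.6, 60.95 and 53.3 in SOMB, 65.2, 71.8, 54.1 and 64.5 in SOMC and 86.03, 95.3, 75.6 and 88.01 in SOMD. SOMA lay below all the others and SOMD above all the others, without overlap. The rise from SOMA was 1.21 ± 0.15 to SOMB (edgeR adjusted p = 6.36e-05) and 1.91 ± 0.15 to SOMD (2.75e-07); the last step alone, +0.45 ± 0.13, did not pass (0.0903).

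Foxd2, which is active in mesoderm of the somites and in facial mesenchyme, had 10.2, 4.09 and 3.85 CPM in SOMA and 29.2, 31.1, 34.1 and 31.05 in SOMB, then 31.1, 29.01, 31.1 and 26.9 in SOMC and 17.9, 26.2, 20.2 and 15.9 in SOMD. SOMA lay below the rest with SOMA1 as its highest library, and SOMD lay below SOMB and SOMC. Foxd2 rose by 2.29 ± 0.26 from SOMA to SOMB (edgeR adjusted p = 3.13e-05) and was 1.66 ± 0.26 above SOMA in SOMD (2.15e-04), while the lower level in SOMD than in SOMC (−0.55 ± 0.22) did not pass (0.29). The ratio of Foxd1 to Foxd2 counts was 4.31 ± 1.28 in SOMA, 1.73 ± 0.18 in SOMB, 2.18 ± 0.33 in SOMC and 4.43 ± 0.91 in SOMD. Neural crest markers, 6 of 6 present, also summed higher in the older groups, at 64.5 to 105.5 CPM in SOMA and 121.0 to 154.5 in SOMB; their part in the rise of the Foxd genes was not tested. The crest member Foxd3 stayed at means of 0.529 to 0.803 CPM.

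Foxd2os, a non-coding gene that runs the other way from Foxd2, had nearly the same profile. It is listed under its older name 9130206I24Rik. Its level was 8.99, 3.87 and 2.97 CPM in SOMA, 29.2, 35.03, 33.3 and 29.8 in SOMB, 28.3, 29.98, 34.5 and 28.8 in SOMC and 15.05, 22.6, 23.1 and 17.1 in SOMD, SOMA again below all others. It rose by 2.50 ± 0.27 from SOMA to SOMB (edgeR adjusted p = 1.8e-05) and was 1.81 ± 0.27 above SOMA in SOMD (1.21e-04). Foxd2 lies on the minus strand and Foxd2os (chr4:114909257-114921967) on the plus strand, and 383 bases separate them in GENCODE M21. The 250 bases before the start of Foxd2 in RefSeq (GRCm38.p6, chr4:114908899-114909148, minus strand) lie wholly in this gap and are shown because both genes start at its edges and were called together.
Foxd2 upstream: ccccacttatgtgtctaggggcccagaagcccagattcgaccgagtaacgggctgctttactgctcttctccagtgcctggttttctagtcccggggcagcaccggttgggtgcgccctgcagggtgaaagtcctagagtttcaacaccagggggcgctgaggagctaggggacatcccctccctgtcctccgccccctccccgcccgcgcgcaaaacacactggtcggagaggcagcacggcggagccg
This window has 64.4% G and C and 16 CpG pairs, beside medians of 62.4% and 16.5 over the 28 members with a window and 52.0% and 6 over all 27025 genes. It holds, on either strand, none of 5 motifs searched, which do not overlap each other: the TATA box TATAAA, the CCAAT box, the GLI site GACCACCCA, the T-box core TCACACC and the forkhead site TGTTTAC, so no letters are in capitals. In the same windows with 50 bases after the start, CCAAT occurred in 15 of 28 members (53.6%, against 41.1% of all genes), TATAAA in 3 (10.7% against 15.7%), TGTTTAC in 1, Foxa1 (3.57% against 4.05%), and the other two in none (against 0.289% and 4.60%).

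Of the other non-coding neighbours, Fendrr, listed as 1110050K14Rik and 1275 bases from Foxf1 on the opposite strand, was not called in any comparison, with 19.4 ± 4.51 CPM in SOMA and 14.8 ± 3.37 in SOMD. Foxl2os, which overlaps Foxl2 by 12 bases, fell by 2.63 ± 0.55 from SOMA to SOMD (edgeR adjusted p = 0.00247).

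Foxb1, a factor of the early neural plate and later hypothalamus, showed the largest fall among members above 5 CPM. It had 29.1, 33.1 and 39.9 CPM in SOMA, 10.5, 7.90, 8.63 and 10.5 in SOMB, 5.90, 6.93, 6.65 and 6.03 in SOMC and 0.994, 3.89, 6.09 and 2.10 in SOMD. SOMA lay far above the rest, and SOMC below SOMB, without overlap. Foxb1 fell by 1.87 ± 0.30 to SOMB (edgeR adjusted p = 6.65e-04) and by 3.43 ± 0.33 to SOMD (2.15e-06). Neural tube markers, 6 of 6 present, summed to 68.5 to 86.8 CPM in SOMA and 80.7 to 144.0 in SOMB. In SOMD they summed to 52.9 to 84.5 CPM, and 3 of 4 libraries lay below every SOMA library. The largest part of this sum is Irx3, with means of 46.7 CPM in SOMA, 60.3 in SOMB and 39.4 in SOMD. Notochord and floor plate markers, 6 of 6 present, summed to 34.1 to 73.1 CPM in SOMA and 7.26 to 9.57 in SOMB. Most of that sum is T, also a gene of the tail presomitic mesoderm, at 51.9 CPM in SOMA and 2.86 in SOMB, while Noto is at 0 in SOMD and Shh was low in all of them (1.62 to 2.54 CPM). Their part in the fall of Foxb1 was not tested.

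Foxe1, of the thyroid and palate, and Foxl2, of the ovary and eyelid, were rare and, among the sorted groups, were highest in SOMA. Foxe1 had 42 counts over the 3 SOMA libraries, 5 over the 4 of SOMB, 0 in SOMC and 1 in SOMD. In CPM these are 0.755, 0.658 and 0.758 in SOMA and 0 to 0.0907 in SOMB, without overlap (edgeR adjusted p = 0.00148, and 1.63e-04 for SOMD against SOMA). The call in SOMB was lost with all 29 libraries in 1 fit (edgeR adjusted p = 0.0777). Foxl2 had 47 counts in SOMA, 16 in SOMB, 12 in SOMC and 7 in SOMD, that is 0.791, 0.804 and 0.885 CPM in SOMA and 0.137 to 0.317 in SOMB. It fell by 1.91 ± 0.45 to SOMB (edgeR adjusted p = 0.0128) and by 2.92 ± 0.53 to SOMD (7.60e-04). Such low counts carry a wide error of counting.

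The Foxp genes, repressors that pair with each other, moved in opposite directions. Foxp1, known from heart and motor neurons, had 138.98, 109.3 and 108.4 CPM in SOMA, 87.8, 67.4, 72.5 and 64.6 in SOMB and 87.6, 94.1, 75.9 and 90.5 in SOMD. SOMA lay above both, and SOMB and SOMD met. Foxp1 fell by 0.71 ± 0.13 to SOMB (edgeR adjusted p = 0.00252), and by 0.43 ± 0.13 to SOMD (0.0304), a call that was lost without SOMA1 (0.144), SOMD1 (0.0626), SOMD3 (0.0743) or SOMD4 (0.0535), with near-identical pairs summed (0.0697), with library totals unscaled (0.0713) and with all 29 libraries in 1 fit (0.154).

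Foxp2, known for its part in brain circuits of speech and in the lung, rose at every step in its means. It had 12.004, 5.70 and 4.99 CPM in SOMA, 19.5, 18.8, 15.8 and 15.1 in SOMB, 24.5, 25.3, 19.03 and 27.3 in SOMC and 44.5, 41.2, 36.1 and 45.1 in SOMD. SOMA lay below SOMB and SOMD above SOMC, while SOMB and SOMC met only at 19 CPM. The rise was 1.13 ± 0.23 from SOMA to SOMB (edgeR adjusted p = 0.0045), 0.81 ± 0.19 from SOMC to SOMD (0.0384) and 2.43 ± 0.23 from SOMA to SOMD (2.20e-06). The call of the first step was lost with all 29 libraries fitted at once (0.0509). The call of the last step was lost with near-identical pairs summed (0.245), with library totals unscaled (0.0574), with all 29 libraries fitted at once (0.332), and without SOMC1 (0.104), SOMC2 (0.0692), SOMC3 (0.114), SOMC4 (0.0725), SOMD1 (0.13), SOMD2 (0.061) or SOMD4 (0.149). For the last step, the first 3 of these fits called 0.372%, 1.99% and 0.933% of all genes.

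Foxp4, active in heart and endoderm, was the most abundant member per kilobase from SOMB on. It had 158.6, 118.6 and 116.8 CPM in SOMA and 236.7, 240.9, 172.5 and 226.6 in SOMD. The groups did not overlap, and Foxp4 rose by 0.75 ± 0.15 (edgeR adjusted p = 0.00135), with no single step called; with all 29 libraries in 1 fit it did not pass (0.0611). The ratio of Foxp1 to Foxp2 counts was 17.5 ± 5.28 in SOMA, 4.24 ± 0.46 in SOMB, 3.34 ± 0.12 in SOMC and 2.09 ± 0.14 in SOMD, and no SOMA library came as low as any SOMB library (lowest 11.6, highest 4.60).

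**Figure D3:**
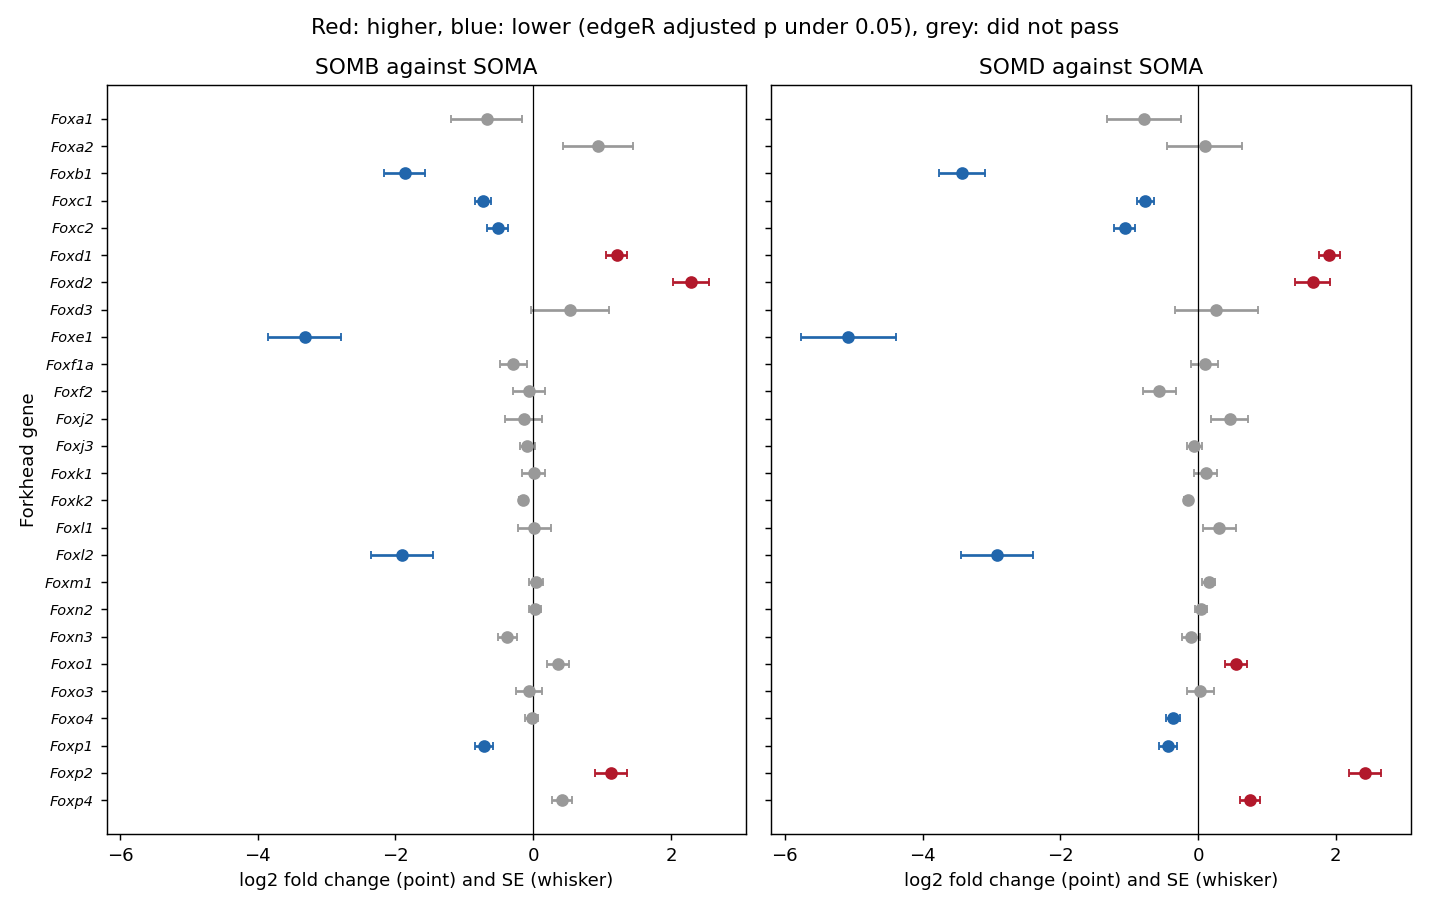
Log2 fold changes (points) with SE (whiskers) of the 26 described forkhead genes in SOMB against SOMA (left) and SOMD against SOMA (right), which share the SOMA libraries; red is called higher, blue called lower, grey not called at an edgeR adjusted p of 0.05. The called members stand on both sides of 0 in each panel, 3 and 6 on the left and 5 and 7 on the right.

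FoxO genes moved little and only end to end. Foxo1, a mediator of insulin signalling that is needed in blood vessels, had 18.4, 15.4 and 14.7 CPM in SOMA and 21.01, 26.5, 24.8 and 22.05 in SOMD. The groups did not overlap, and it rose by 0.55 ± 0.16 (edgeR adjusted p = 0.0206), not so without SOMA3, SOMA4 or SOMD2. Foxo4, its X-linked relative, had 99.1, 110.1 and 103.3 CPM in SOMA and 85.9, 81.8, 70.8 and 81.4 in SOMD. These groups did not overlap either, and it fell by 0.36 ± 0.10 (0.0162), not so without SOMA3 (0.0651). Foxo3 had means of 18.1 to 20.5 CPM in the 4 groups. Of 19 tested regulators and targets of FoxO, 4 were higher and 3 lower in SOMD than in SOMA. The higher ones were Irs1 (+1.13 ± 0.17), an adaptor of the insulin receptor, Sesn3 (+0.62 ± 0.08), the cell-cycle inhibitor Cdkn1b (+0.61 ± 0.13) and the death gene Bcl2l11 (+0.39 ± 0.13). The lower ones include Cited2 (−0.46 ± 0.08) and Trp53inp1 (−0.66 ± 0.15). The list's median was 0.09, beside 0.00 for all genes.

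Outside the FoxO genes, the members that work in most cells were not called by edgeR along the series. Foxk2 had means of 164.2 to 184.7 CPM, Foxm1 135.97 to 157.6, Foxj3 65.2 to 68.7, Foxk1 64.9 to 71.5 and Foxn2 48.3 to 50.6. Foxn3 and Foxj2 were not called either, and DESeq2 called Foxk2 lower in SOMD than in SOMA. Of 12 tested targets of Foxm1, the phosphatase Cdc25b alone was called in SOMB against SOMA (+0.68 ± 0.11), and in SOMD against SOMA it rose (+1.02 ± 0.11) while Cenpf fell (−0.23 ± 0.07). Foxh1, the partner of Smads in Nodal signalling, stayed below 1 CPM on average in the SOM groups, and of 6 tested genes of its pathway Lefty2 alone was called, lower in SOMB and in SOMD than in SOMA.

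The cultured cells ask what LDN and SAG change. No forkhead gene was called in DIR against CTRL: 0 of 28 tested by edgeR and 0 by DESeq2, where 0.747% (edgeR) and 3.5% (DESeq2) of all 14190 genes were called. By edgeR 4 members had an unadjusted p under 0.05, a threshold at which the share of all genes was not counted. The lowest p belonged to Foxm1, with 129.2, 110.4, 140.7 and 155.6 CPM in CTRL and 91.05, 111.5, 90.6 and 96.9 in DIR. The groups met only at CTRL2 and DIR2, and the difference of −0.46 ± 0.13 did not pass (edgeR adjusted p = 0.167). Foxk1 had 68.3, 57.9, 78.5 and 85.5 CPM in CTRL and 42.1, 60.03, 51.9 and 51.2 in DIR, also overlapping (−0.50 ± 0.16, edgeR adjusted p = 0.207). Both passed only when all 29 libraries were fitted at once (0.0054 and 0.0348), a fit in which 9.74% of all genes were called.

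Several members differed between sets of libraries more than between treatments. In CTRL1, DIR1 and DIR2, which have the larger multi-place share, Foxf1a had 10.9, 6.68 and 13.2 CPM, against 40.6 to 68.8 in the other 5. Foxp4 had 53.4, 45.8 and 51.9 against 95.3 to 137.8. Foxn2 went the other way, with 59.7, 56.5 and 50.3 against 29.2 to 35.6. In none of these 3 genes did the 2 sets of libraries overlap, and each set holds libraries of both treatments. These genes are examples: Foxj3, Foxk2, Foxo1 and Foxp2 were also higher in each of CTRL1, DIR1 and DIR2 than in the other 5. Foxb1, Foxo3 and Foxa2 were lower in each of CTRL1, DIR1 and DIR2 than in the other 5. How many of all genes split the libraries this way was not counted, and whether the share itself plays a part was not tested.

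Foxb1 was highest in 2 treated libraries and lowest in CTRL1, DIR1 and DIR2, the libraries with the larger multi-place share. It had 27.7, 47.7, 47.1 and 42.9 CPM in CTRL and 42.1, 40.3, 87.4 and 75.5 in DIR, so that DIR3 and DIR4 lay above all CTRL libraries and DIR1 and DIR2 among them. Notochord and floor plate markers, 5 of 6 present, were highest in the same libraries, summing to 102.5 CPM in DIR3 and 86.6 in DIR4, against 40.6 and 52.8 in DIR1 and DIR2 and 36.9 to 62.5 in CTRL. Most of that sum is T, also a gene of the tail presomitic mesoderm, with means of 44.7 CPM in CTRL and 64.6 in DIR. Shh, Nog and Chrd had lower means in DIR than in CTRL, and Noto a higher one. Endoderm markers, 8 of 8 present, were also highest in DIR3 and DIR4, at 38.5 and 27.2 CPM against 15.6 to 22.3 in the other 6. The part of either list in the level of Foxb1 was not tested. The difference of +0.57 ± 0.29 did not pass (edgeR adjusted p = 0.374). Among the 5 libraries with the lower share alone (DIR3 and DIR4 against CTRL2, CTRL3 and CTRL4) it was +0.84. There the edgeR adjusted p was 0.00621, and 1.78% of all genes were called. This subset was chosen after seeing the data. It leaves out CTRL1, where Foxb1 was lowest, and DIR1 and DIR2, where Foxb1 lay among CTRL, so its p-value depends on that choice. With the share as a term the difference was +0.93 (edgeR adjusted p = 0.0335, 1.52% called). Of the other members known as Hedgehog-responsive, Foxf2 had 11.3 to 16.9 CPM in CTRL and 11.51 to 14.8 in DIR, and Foxl1 2.73 to 6.02 and 4.63 to 7.63, neither called. Of 9 tested Hedgehog pathway genes none was called by edgeR. Lateral plate and heart markers, 7 of 7 present in CTRL and 6 of 7 in DIR, where Nkx2-5 is at 0, summed to 143.1 to 234.2 CPM in CTRL and 47.5 to 71.7 in DIR; their part in the levels of Foxf1a, a gene of that tissue too, was not tested. Of the somite factors, Pax1 alone of 18 was called, higher in DIR.

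**Figure D4:**
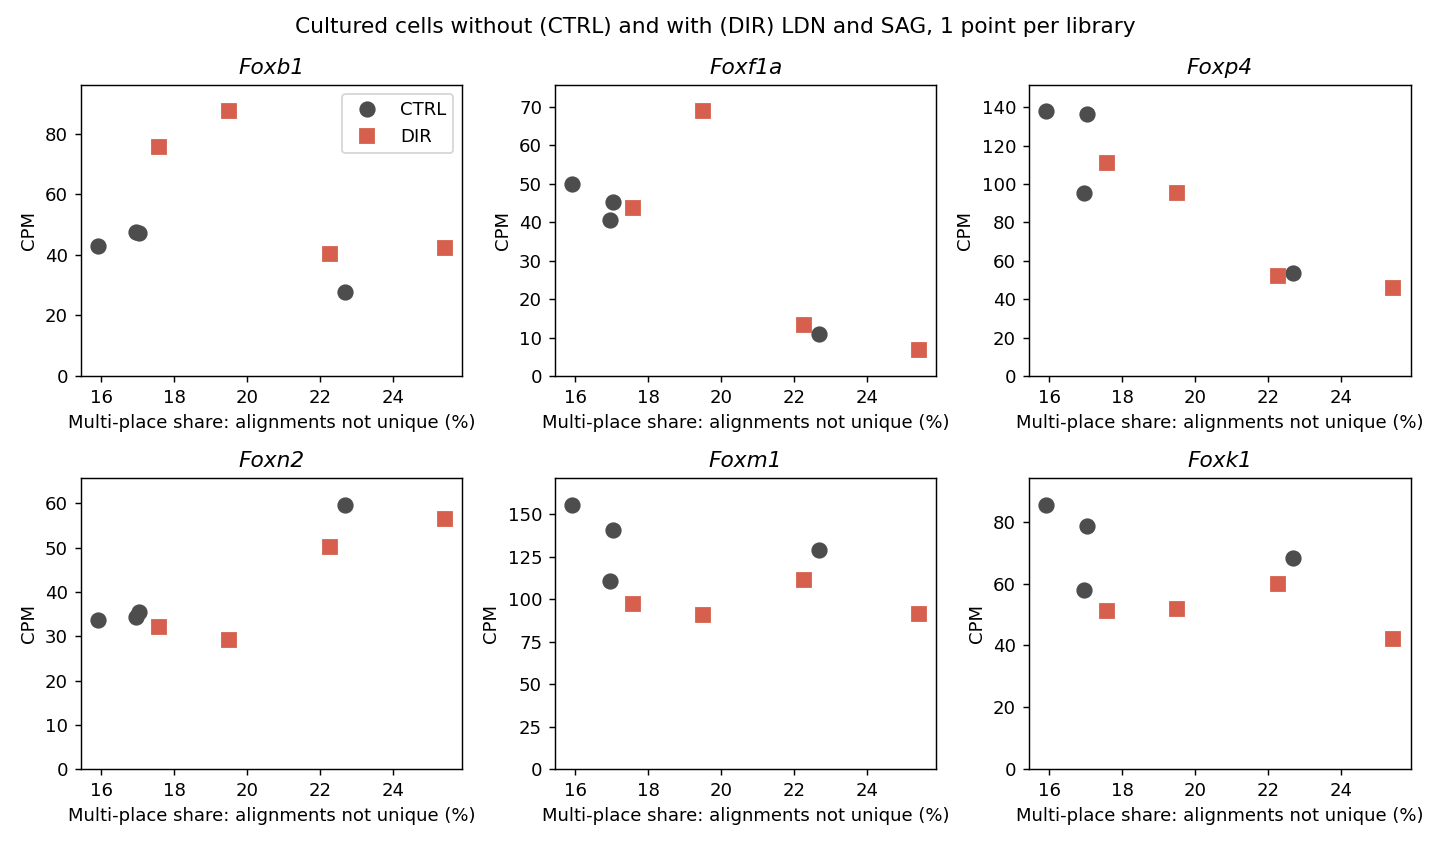
CPM of 6 forkhead genes in the 8 cultured libraries against the multi-place share (%), circles for CTRL and squares for DIR. In Foxf1a and Foxp4 the 3 libraries above 22% are the lowest of both treatments, and in Foxn2 they are the highest, at 50.3 to 59.7 CPM.

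In trunk tissue, Foxa1, Foxa2 and Foxd3, known from endoderm, floor plate or neural crest, had higher means than in any sorted or cultured group. Foxa1, a pioneer factor of endoderm, had 12.02 ± 4.59 CPM in MUT and 14.6 ± 7.55 in WT, against means of at most 0.841 in any sorted or cultured group. Foxa2 had 9.08 ± 1.44 and 9.71 ± 3.55, against at most 1.76, and Foxd3 10.9 ± 1.72 and 7.92 ± 1.36, against at most 0.803. Foxf1a and Foxf2 had lower means in trunk tissue than in every other group, at 5.62 and 5.45 CPM in MUT, though DIR1 was as low in Foxf1a. Tissue and preparation differ together between these groups and cannot be told apart, so no test was made. The multi-place share differs with them, at 38.8 to 40.6% in the trunk libraries and 15.9 to 25.4% in all others, and its part in these levels was not tested.

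Several members that work in most cells also had other levels in trunk tissue than in sorted cells. How many of all genes have ranges that do not overlap between these groups was not counted. Foxo4 had its lowest means there, 46.4 ± 0.862 CPM in MUT and 45.8 ± 5.50 in WT, and its highest in culture, 127.97 ± 10.2 in CTRL. Single libraries of trunk tissue had 39.5 to 49.5 CPM of Foxo4 and those of the other groups 70.8 to 141.6, without overlap. Foxo1 was the reverse in trunk tissue, with 32.4 to 42.7 CPM against 14.7 to 32.5 elsewhere, the ranges meeting only at DIR2. Foxk2, a regulator of glycolysis and autophagy genes, had 197.6 to 226.7 CPM in trunk tissue, 155.4 to 189.2 in the SOM groups and 100.005 to 142.5 in culture, 3 ranges that do not overlap. Foxm1 and Foxj3 had 96.6 to 107.1 and 43.96 to 54.3 CPM in trunk tissue, against 120.4 to 165.7 and 58.1 to 77.3 in the SOM groups, without overlap; in DIR, Foxm1 was as low as in trunk tissue, with a mean of 97.5. A pair of rare members had their highest means in trunk tissue: Foxa3 had means of 1.23 and 1.02 CPM and Foxj1, which switches on motile cilia, 1.67 and 0.983, against at most 0.175 and 0.495 elsewhere; single libraries overlapped for Foxj1 and did not for Foxa3.

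By edgeR no forkhead gene was called in MUT against WT, 0 of 31 tested, and by DESeq2 1 was. Of all genes, edgeR called 0.338% of 14485 and DESeq2 7.78% of the 9707 to which it gave an adjusted p. In edgeR 4 members had an unadjusted p under 0.05, a threshold at which the share of all genes was not counted. The gene that DESeq2 called was Foxn2, a factor of most cells, with 40.2, 34.9 and 42.6 CPM in MUT and 50.7, 50.7 and 46.9 in WT. The groups did not overlap (−0.34 ± 0.09, edgeR adjusted p = 0.13, DESeq2 adjusted p = 0.0288). Foxd2 had 12.6, 9.22 and 10.1 CPM in MUT and 7.08, 7.11 and 8.17 in WT, without overlap as well, and did not pass (+0.51 ± 0.17, edgeR adjusted p = 0.186). Foxd3 had 9.24, 12.7 and 10.8 against 8.02, 6.51 and 9.22, a narrow gap between the lowest MUT and the highest WT library (+0.45 ± 0.18, edgeR adjusted p = 0.269).

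Libraries of the same genotype differed more in some members than the genotypes did. Foxa1 had 12.4, 16.4 and 7.26 CPM in MUT and 18.1, 19.8 and 5.97 in WT, MUT3 and WT3 being the lowest. Foxf1a had 4.82, 9.43 and 2.62 and 8.19, 8.84 and 3.05, with the same 2 libraries lowest. Endoderm markers other than forkhead genes, 8 of 8 present, summed to 113.3, 168.4 and 97.1 CPM in MUT and 146.9, 217.8 and 67.6 in WT, and lateral plate and heart markers, 7 of 7 present, to 66.5, 73.8 and 27.1 in MUT and 51.6, 111.0 and 35.0 in WT. Replicate 3 was thus lowest in both lists and both groups, and the part of this in the levels of Foxa1 and Foxf1a was not tested. MUT1 and the 3 WT libraries had at most 10.7 CPM of Xist, and MUT2 and MUT3 had 1812 and 1811, so the sex of the embryos differs between libraries of MUT; with Xist as a term no member was called, and 0.0069% of all genes.

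**Figure D5:**
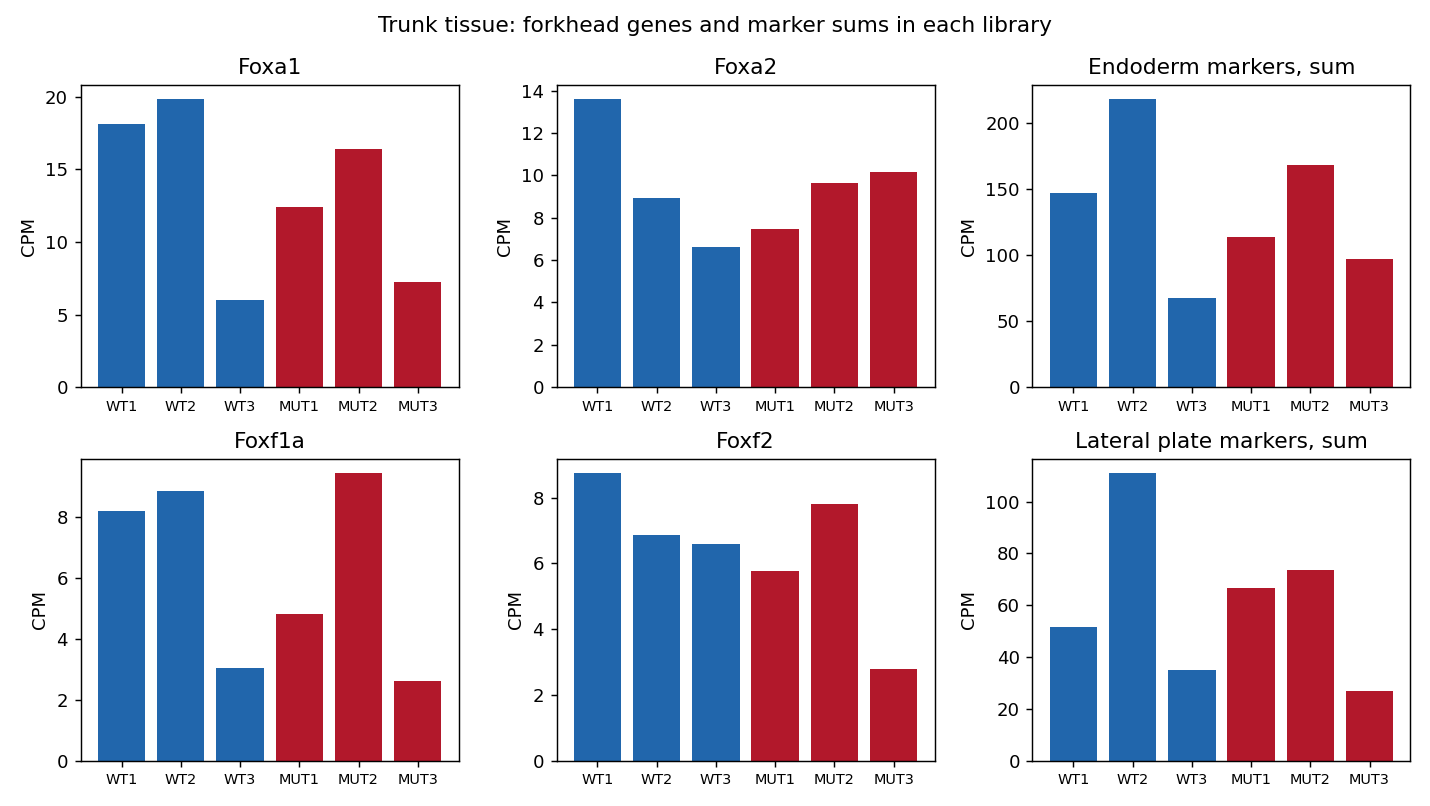
CPM of Foxa1, Foxa2, Foxf1a and Foxf2 and the summed CPM of 8 endoderm and 7 lateral plate and heart markers in each WT (blue) and MUT (red) library. Foxa1 and Foxf1a are lowest in WT3 and MUT3, as are both marker sums.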

How the data were processed

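Per the labels, libraries were made from Trizol extracts with the TruSeq RNA v2 kit, which does not mark strand. The authors deposited integer counts of reads per gene, 1 table for each of 29 samples with 23337 genes and 5 HTSeq summary lines, which were left out of library sizes (reads outside genes 6.54 to 12.8%, alignments that were not unique 15.9 to 40.6%). TopHat2 2.0.9, Cufflinks, HTSeq 0.6 and DESeq2 1.10 appear in the submitters' processing notes; the annotation and the strand setting: not given in the sources used here. Raw reads were not used.

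Low genes were removed with filterByExpr (at least 10 counts, 15 in total), library sizes were scaled by TMM, and tests used edgeR 4.0.16 (quasi-likelihood F test, prior count 0.125, R 4.3.3), with Benjamini-Hochberg adjustment over all genes tested and a threshold of 0.05. The SOM libraries entered 1 fit, as did CTRL with DIR, and MUT with WT. Levels are CPM scaled by TMM over all 29 libraries; the SE is the log2 fold change divided by the root of F. Levels per kilobase use summed exons of GENCODE M21, where 44 of 44 members matched, Foxf1a by its older symbol. The members, the 6 gene lists beside them and the marker lists were chosen with earlier results of these data known. Members are named if called or with a mean of at least 5 CPM in a group (26 genes), with single-library values for those a result turns on. The fit was tested on simulated data.

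Alternatives were RLE size factors, unscaled library totals, no filter, DESeq2 1.42.0, replicate number as a block, all 29 libraries in 1 fit, each library left out, near-identical pairs summed, technical shares or Xist as terms, and, chosen after seeing the data, robust dispersion estimates and the cultured libraries with the lower multi-place share (alignments not unique) alone. Numbers were taken to pair libraries where each same-number pair had a correlation over 0.1 of deviations from group means. From the data, not the labels, this held in SOMB against SOMA (0.398 to 0.455, 3 pairs) and SOMD against SOMC (0.402 to 0.506, 4 pairs). Plots used matplotlib 3.10.9 (Python 3.11.15). Some items are not reported here.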

Additional observations from a re-analysis of the deposited data

Results flagged for a closer look

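Of 110 sets of 4 libraries of 1 group looked at over the described genes, 2 held a library far from the other 3 by Dixon's test, which chance alone flags in about 1 of 20. Foxc1 had 67.6 CPM in SOMD3, where the other SOMD libraries had 86.0 to 88.3. Foxn2 had 59.7 CPM in CTRL1, where the other CTRL libraries had 33.6 to 35.6; CTRL1 is the CTRL library with the larger multi-place share.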

How the results depend on the processing

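Of 22 called member results, 14 kept their call under every alternative run, and of 131 that were not called 12 passed under at least 1; none reversed. In DIR against CTRL 1 member was called among the low-share libraries or with that share as a term and 2 with all 29 libraries in 1 fit. In SOMD against SOMC, where 1 was called, 0 were called with unscaled totals, with near-identical pairs summed and with all libraries in 1 fit, 3 with DESeq2 or the no-feature share as a covariate (Foxp2, Foxd1 and Foxf2), and 2 with the replicate block (Foxp2 and Foxf2). DESeq2 called 1 member in MUT against WT. The block changed no other count of members. In the 4 comparisons whose numbers do not pair libraries, same-number correlations ran from −0.589 to 0.766, and the block moved the count of all genes called in DIR against CTRL from 106 to 256. Some libraries of unlike number did go together. SOMC2, SOMC3 and SOMC4 were correlated with SOMB3, SOMB4 and SOMB1 (0.413 to 0.487), and SOMD2, SOMD3 and SOMD4 with SOMA3, SOMA4 and SOMA1 (0.362 to 0.421). The remaining pairs of unlike number in these comparisons ran from −0.379 to 0.147. No fit paired libraries this way, so such a pairing was not tested. Leaving out 1 library gave 8 to 10 calls in SOMB against SOMA, 0 to 2 in SOMD against SOMC, 10 to 11 in SOMD against SOMA, 10 to 13 for any difference along the series (11 called) and 0 in the other 3 comparisons. Of 208 levels per kilobase, 65 moved by over 1 SD with the length of the longest transcript. Counts under about 50 per group, as for Foxe1 and Foxl2, limit what the depth can show.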
